A study of Homo sapiens with 9 samples.

Results

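The expression of 10 genes of the endoplasmic reticulum (ER) folding machinery was followed in HCT116 cells, a human colorectal cancer line of epithelial origin: HSPA5, HSP90B1, HYOU1, DNAJB9, SDF2L1, PDIA4, CRELD2, MANF, HERPUD1 and XBP1. They were chosen by symbol, as ER chaperones and targets of the transcription factor XBP1, with earlier results of these data known. Their counts and medians beside those of all genes therefore describe the set and are no test of it. The symbols matched 10 of the 31558 genes in the count table. CRLM1 was expressed from a lentiviral pTSB vector with GFP and puromycin resistance, and whether the controls were transduced and selected in the same way is not given in the sources used here. CRLM1-OE carried the long non-coding RNA CRLM1 (LINC01767), Anti carried its sequence in antisense orientation, and Ctrl carried the plasmid with no insert. Each group was 1 cell line with 3 biological replicates, so that the insert and any difference between the lines cannot be told apart, and the p-values below measure only the spread between these samples.

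Proteins that enter the ER are folded there by chaperones of the HSP70 and HSP90 families, by disulfide isomerases and by lectins that read N-glycans. When unfolded proteins accumulate, the sensors IRE1 (gene ERN1), ATF6 and PERK (gene EIF2AK3) start the unfolded protein response, in which IRE1 splices the XBP1 mRNA and the XBP1 and ATF6 proteins switch on genes for chaperones and for ER-associated degradation. Cells that secrete much protein, such as those of the intestinal epithelium, rely on this response at rest. Gene counts do not separate the spliced from the unspliced form of XBP1 mRNA, so that the activity of the factor was not measured here.

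XBP1 and ATF6 are known to act through the ER stress response element (ERSE), in which CCAAT is followed by 9 bases of any kind and CCACG, and through ERSE-II, in which ATTGG is followed by 1 base and CCACG. Both strands of every promoter, taken from 250 bases before to 50 bases after the RefSeq transcript start on GRCh38.p14, were searched for these letters. All 10 genes had a promoter in the table, and 7 of them held an element, while 46 of all 35116 promoters did (0.131%). The genes were chosen as ER chaperones and targets of XBP1, which acts through these elements. Their share could thus be foreseen from the choice and is no result of these data. It counts genes, of which PDIA4 and XBP1 had 2 starts each, and the share over all counts promoters. ERSE was found in 27 promoters (0.0769%), 4 of them of the genes described here, and ERSE-II in 19 promoters (0.0541%), 3 of them of these genes. The elements are shown with 20 bases on each side, 5′ to 3′ on the strand of the gene, because most of these genes have one. Capitals mark the boxes of each element as they read on the strand of the gene, so that CCAAT appears as ATTGG, or CCACG as CGTGG, where a box lies on the other strand.
HSPA5, ERSE, 66 to 48 bases before the start, chr9:125241371-125241429, minus strand: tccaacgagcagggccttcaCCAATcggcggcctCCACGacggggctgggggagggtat
HSP90B1, distal ERSE, 194 to 176 bases before the start, chr12:103930196-103930254, plus strand: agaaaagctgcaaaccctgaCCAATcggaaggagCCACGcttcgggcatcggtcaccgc
HSP90B1, proximal ERSE in the opposite orientation, 89 to 71 bases before the start, chr12:103930301-103930359, plus strand: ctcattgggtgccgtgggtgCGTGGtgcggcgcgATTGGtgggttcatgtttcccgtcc
CRELD2, ERSE in the opposite orientation, 80 to 62 bases before the start, chr22:49918534-49918592, plus strand: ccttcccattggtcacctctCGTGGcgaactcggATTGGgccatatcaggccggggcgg
XBP1, ERSE, 52 to 34 bases before the start, chr22:28800583-28800641, minus strand: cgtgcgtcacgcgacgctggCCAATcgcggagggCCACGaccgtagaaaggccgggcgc
HYOU1, distal ERSE-II in the opposite orientation, 185 to 175 bases before the start, chr11:119057360-119057410, minus strand: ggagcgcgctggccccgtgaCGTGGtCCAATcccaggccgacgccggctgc
HYOU1, proximal ERSE-II in the opposite orientation, 79 to 69 bases before the start, chr11:119057254-119057304, minus strand: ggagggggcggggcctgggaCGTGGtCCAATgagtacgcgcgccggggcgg
SDF2L1, ERSE-II in the opposite orientation, 188 to 178 bases before the start, chr22:21642094-21642144, plus strand: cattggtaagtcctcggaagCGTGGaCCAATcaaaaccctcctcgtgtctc
HERPUD1, ERSE-II, 117 to 107 bases before the start, chr16:56932005-56932055, plus strand: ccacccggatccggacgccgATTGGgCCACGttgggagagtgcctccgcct

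HSP90B1 and HYOU1 each held a pair of elements, and the other 5 genes 1 each. The distal ERSE-II of HYOU1 overlapped a TGACGTGG, the sequence by which XBP1 binds the unfolded protein response element, and this was the only match to those 8 letters among the 10 genes, against 256 of all promoters (0.729%). None of these letters stood in the windows of DNAJB9, PDIA4 and MANF, which says nothing of other elements or of positions outside the windows. A match describes the sequence and is not a measured binding site.

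**Figure D1:**
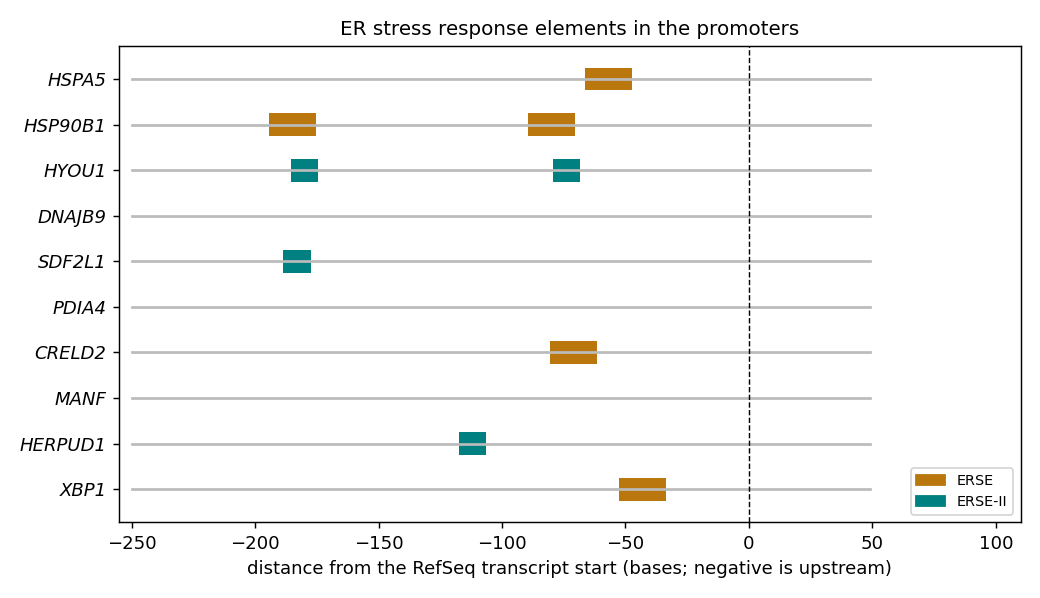
Positions of ERSE (orange) and ERSE-II (green) in the promoters of the 10 genes, in bases from the RefSeq transcript start (dashed line), with each window drawn as a grey line. The promoters of 7 genes hold at least 1 element, all of them upstream of the start, and those of DNAJB9, PDIA4 and MANF hold none.

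The libraries were made from polyA RNA and read as pairs of 151 nt. Between 33302292 and 44514692 reads per sample were counted on genes, and each of the 10 genes had at least 878 counts in every sample. CRLM1, named RP4-710M16.2 in the files, had 38704, 32751 and 35726 counts in CRLM1-OE, 0 in each Ctrl sample and 1951, 1777 and 1540 in Anti. The sources do not give whether strand was used in counting, so that sense and antisense reads of the CRLM1 insert cannot be told apart. Of 8 epithelial markers all were in the table, with summed FPKM (fragments scaled for exon length and for sequencing depth) of 4849 to 4983 in the CRLM1-OE samples, 5520 to 5558 in the Ctrl samples and 4572 to 4627 in the Anti samples. Against Ctrl 4 of the 8 were lower and none higher, among them KRT18, at a mean FPKM of 426 in CRLM1-OE, beside 785 for Ctrl and 826 for Anti, and EPCAM, with a log2 fold change of -0.35 against Ctrl. The part of this in the results on the 10 genes was not tested. VIL1 and LGALS4, both genes of the intestinal epithelium, had at most 10 and 5 counts in any sample. Of 12 markers of fibroblasts, leukocytes and endothelium 10 were in the table, with a summed FPKM from 2.13 to 2.51 for CRLM1-OE, from 1.26 to 1.35 for Ctrl and from 1.32 to 1.46 for Anti. Nearly all of that sum was COL1A1, and PTPRC, DCN and PECAM1 had at most 2, 3 and 6 counts in any sample.

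All 10 genes were lower in CRLM1-OE than in Ctrl, at 56% to 77.8% of its level, and all 10 were lower than in Anti, at 38.1% to 73.9% of its level. FPKM values given below are the authors'. Changes are log2 fold changes of the counts, scaled by edgeR's TMM factors and tested with its quasi-likelihood test. Benjamini-Hochberg adjustment was made over all genes tested. A level given as a percentage of a control is the fold change of these TMM-scaled counts, and not a ratio of FPKM. In FPKM the decreases against Ctrl were smaller, as for HSPA5, with means of 730 in CRLM1-OE and 867 in Ctrl. At an adjusted p of at most 0.05, 16.8% of the 29846 genes tested against Ctrl were lower and 15% were higher. Against Anti 18.5% of 30183 genes were lower and 17.1% higher. The median log2 fold change of the 10 genes was -0.60 against Ctrl, beside 0.017 over all genes tested, and -0.79 against Anti, beside -0.023. The 10 genes are abundant, and of the 5646 genes whose mean count reached 1000, which include all 10, 49% were lower than in Ctrl with a median of -0.082, and 43.3% lower than in Anti with a median of -0.023. In bulk RNA, fewer cells that express a gene and less of its RNA in each cell cannot be told apart.

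All 3 CRLM1-OE samples lay below all 3 control samples for each of the 10 genes, in both comparisons. Such a separation downward was seen for 19.3% of all genes against Ctrl and for 21% against Anti. None of the 10 passed the study's 2-fold limit against Ctrl, where 0.915% of all genes were lower by at least 2-fold. HYOU1, PDIA4 and SDF2L1 passed it against Anti, where 2.56% of all genes did.

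**Figure D2:**
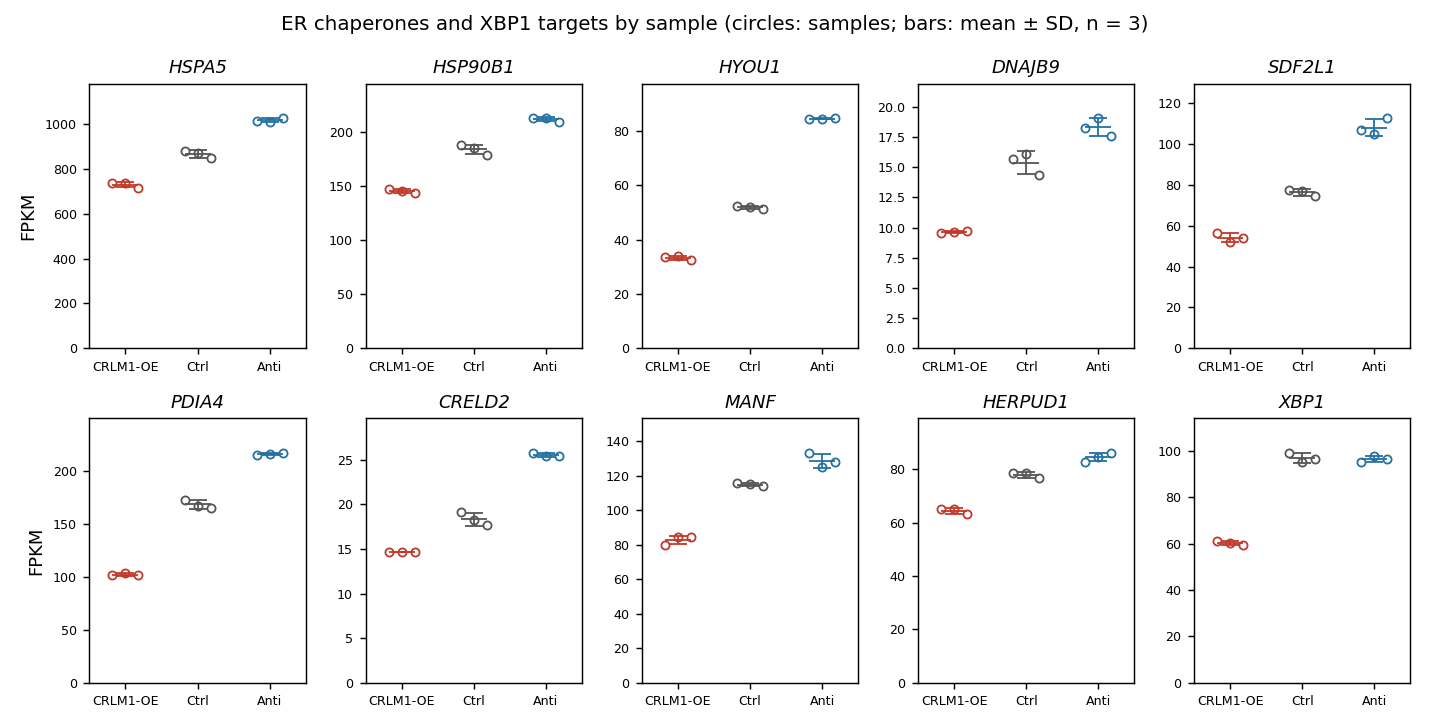
FPKM of the 10 genes in each sample (circles), with mean ± SD (bars, n = 3), for CRLM1-OE (red), Ctrl (grey) and Anti (blue), on axes that start at 0. Every CRLM1-OE sample lies below every control sample for every gene, and XBP1 is the gene whose Ctrl and Anti samples overlap.

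The chaperones that bind unfolded proteins came first in abundance. Each gene is given with the identifier of the files and its span on GRCh38 in GENCODE version 44. HSPA5 (BiP, ENSG00000044574.7, chr9:125234853-125241382), the HSP70 of the ER lumen and the protein that holds the stress sensors inactive, had FPKM values of 735, 739 and 717 in CRLM1-OE, 882, 872 and 848 in Ctrl, and 1016, 1009 and 1027 in Anti. The groups did not overlap, and their order was CRLM1-OE, Ctrl and then Anti. HSPA5 decreased to 77.8% of Ctrl, a log2 fold change of -0.36 ± 0.015 (SE, 95% interval -0.39 to -0.33, edgeR adjusted p = 6.1e-124), which was the smallest decrease of the 10. Against Anti its log2 fold change was -0.52 ± 0.013 (edgeR adjusted p written as 1e-300, the smallest value recorded). HSPA5 ranked 76 of 31268 genes by mean FPKM and alone made up 0.323% to 0.329% of all counts in CRLM1-OE, 0.375% to 0.386% in Ctrl and 0.447% to 0.456% in Anti.

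HSP90B1 (GRP94, ENSG00000166598.12, chr12:103930107-103953931), the HSP90 of the ER, which folds integrins and Toll-like receptors, had FPKM values of 147, 145 and 144 in CRLM1-OE, 187, 185 and 179 in Ctrl, and 213, 213 and 210 in Anti. It showed the same order of groups with no overlap. Its level was 72.9% of Ctrl, with a log2 fold change of -0.46 ± 0.021 (edgeR adjusted p = 9.5e-99), and 66.5% of Anti, with -0.59 ± 0.018. The gene overlaps UQCC6 on the opposite strand over 13169 bp, and UQCC6 had 325 to 560 counts against at least 15738 for HSP90B1.

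HYOU1, DNAJB9 and SDF2L1 assist HSPA5. HYOU1 (GRP170, ENSG00000149428.18, chr11:119044188-119057227), a large relative of HSP70 that releases ADP from HSPA5, had FPKM values of 33.4, 34 and 32.4 in CRLM1-OE, 52.5, 52 and 51.4 in Ctrl, and 84.5, 84.5 and 84.8 in Anti. The 3 groups stood apart by far more than their samples differed from each other. The log2 fold change of HYOU1 was -0.76 ± 0.025 against Ctrl (edgeR adjusted p = 4.9e-193) and -1.39 ± 0.022 against Anti, where its level was 38.1% of the control and the largest decrease of the 10. HYOU1 is the gene with a pair of ERSE-II elements and the TGACGTGG shown above.

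DNAJB9 (ERdj4, ENSG00000128590.4, chr7:108569867-108574850), a J-domain co-chaperone that recruits HSPA5 to IRE1 and to misfolded proteins, was the least abundant of the 10 per length, with FPKM values of 9.55, 9.64 and 9.7 in CRLM1-OE, 15.7, 16.1 and 14.3 in Ctrl, and 18.3, 19.1 and 17.6 in Anti. Its spread between Ctrl samples was the widest of the 10 genes in any group, at 6.04% of the mean, and the groups still did not overlap. DNAJB9 decreased by 0.79 ± 0.045 on the log2 scale against Ctrl (edgeR adjusted p = 2.5e-67) and by 0.98 ± 0.043 against Anti.

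SDF2L1 (ENSG00000128228.4, chr22:21642302-21644299), which keeps ERdj3 and HSPA5 clients from aggregating, had FPKM values of 56.2, 51.9 and 54.1 in CRLM1-OE, 77.7, 77 and 74.4 in Ctrl, and 107, 105 and 113 in Anti. Again CRLM1-OE was lowest and Anti highest in every sample. The level in CRLM1-OE was 65.5% of Ctrl (log2 fold change -0.61 ± 0.037, edgeR adjusted p = 2.6e-60) and 48.5% of Anti (-1.04 ± 0.033). This last value lies close to the 2-fold limit and was -0.98 when counts were scaled by library totals alone, which would not pass it.

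The disulfide enzymes comprise PDIA4 and CRELD2. PDIA4 (ERp72, ENSG00000155660.10, chr7:149003062-149028662), a disulfide isomerase that works in complexes with HSPA5 and HSP90B1, had FPKM values of 101, 103 and 102 in CRLM1-OE, 173, 167 and 165 in Ctrl, and 215, 216 and 217 in Anti. The CRLM1-OE samples were nearly equal and lay far below every control sample. With -0.84 ± 0.022 (95% interval -0.88 to -0.79, edgeR adjusted p written as 1e-300), PDIA4 had the largest log2 decrease of the 10 against Ctrl, at 56% of its level. Against Anti it was at 45.8%, with a log2 fold change of -1.13 ± 0.019.

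CRELD2 (ENSG00000184164.14, chr22:49918167-49927540), a stress-induced ER protein thought to act as a disulfide isomerase, had FPKM values of 14.7, 14.7 and 14.6 in CRLM1-OE, 19.1, 18.2 and 17.7 in Ctrl, and 25.8, 25.4 and 25.4 in Anti. The groups again stood in the order CRLM1-OE, Ctrl, Anti with no overlap. It decreased to 73.7% of Ctrl (log2 fold change -0.44 ± 0.05, edgeR adjusted p = 2.2e-17) and to 55.7% of Anti (-0.85 ± 0.046). CRELD2 had the lowest mean count of the 10, 1325 over the 9 samples, and the widest standard error, and its end overlaps ALG12 on the opposite strand over 272 bp. ALG12 had 480 to 679 counts, beside 878 to 1852 for CRELD2, and any share of its reads in the CRELD2 counts was not tested.

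MANF (ENSG00000145050.15, chr3:51385291-51389397), a small protein kept in the ER by binding to HSPA5 and secreted under stress, had FPKM values of 80, 84.1 and 84.3 in CRLM1-OE, 115, 115 and 114 in Ctrl, and 133, 125 and 128 in Anti. CRLM1-OE lay well below both controls, which were close to each other. MANF was at 66.6% of Ctrl (log2 fold change -0.59 ± 0.029, edgeR adjusted p = 2.5e-87) and at 62.4% of Anti (-0.68 ± 0.026).

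HERPUD1 (ENSG00000051108.14, chr16:56932142-56944864), a membrane protein that assembles the HRD1 complex for ER-associated degradation, had FPKM values of 65.1, 65.2 and 63.2 in CRLM1-OE, 78.5, 78.8 and 76.7 in Ctrl, and 82.9, 84.6 and 86.1 in Anti. On this scale its 3 groups did not overlap, and the controls were close to each other. It fell less than most of the others, to 76.4% of Ctrl (log2 fold change -0.39 ± 0.025, edgeR adjusted p = 6.3e-53) and to 73.9% of Anti (-0.44 ± 0.022). The second of these was the smallest decrease of the 10 against Anti.

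XBP1 (ENSG00000100219.16, chr22:28794555-28800597) encodes the transcription factor that gives the group its name. Its FPKM values were 61, 60.1 and 59.4 in CRLM1-OE, 99.1, 95.2 and 96.4 in Ctrl, and 95.3, 97.8 and 96.7 in Anti. The CRLM1-OE samples were separated from both controls, and the controls overlapped. XBP1 decreased to 57.3% of Ctrl (log2 fold change -0.80 ± 0.027, edgeR adjusted p = 1.0e-193) and to 60.3% of Anti (-0.73 ± 0.024). It was the only one of the 10 whose log2 decrease was nominally larger against Ctrl than against Anti.

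The FPKM of the 10 genes summed to 1280 to 1307 in the CRLM1-OE samples, to 1637 to 1700 in the Ctrl samples and to 1978 to 2005 in the Anti samples. HSPA5 made up 56% to 56.5% of that sum in the first group, 51.8% to 52% in the second and 51% to 51.2% in the third. Against Ctrl the other 9 genes all decreased by more than HSPA5 on the log2 scale. Against Anti HERPUD1 decreased by less (-0.44 beside -0.52) and the others by more. By mean FPKM the order of the genes was HSPA5, HSP90B1, PDIA4, MANF, XBP1, SDF2L1, HERPUD1, HYOU1, CRELD2 and DNAJB9, at ranks 76, 261, 293, 456, 593, 635, 680, 907, 2463 and 3183 of 31268 genes. The coefficient of variation of FPKM within a group had a median of 1.69% over the 10 genes and 3 groups.

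Genes with and without an element in the promoter overlapped in the size of their decrease. The 3 genes with none in the window, PDIA4, DNAJB9 and MANF, had log2 fold changes of -0.84, -0.79 and -0.59 against Ctrl, and the 7 with one ran from -0.80 in XBP1 to -0.36 in HSPA5. Among all other genes tested against Ctrl that matched a promoter, 28 held ERSE or ERSE-II, and 11 of these (39.3%) were lower and 5 higher, beside 27.3% lower of the 13327 genes with neither. The median log2 fold changes were -0.16 with an element and -0.02 with neither. Among the genes whose mean count reached 100 the shares lower were 50% of 22 genes with an element and 40.2% of 8590 without, with medians of -0.16 and -0.05. Against Anti, 39.3% of the 28 and 29.1% of 13362 genes were lower, with median log2 fold changes of 0.02 and -0.02. At a mean count of at least 100 these shares were 50% and 41.4%, with medians of -0.03 and -0.04. The genes with an element include CANX, CALR, PDIA6 and ERO1B of the wider ER lists described below. Of these 4, 3 were lower than in Ctrl and 4 lower than in Anti, so the shares are not those of genes outside the ER. The shares are descriptions and no test was made of their difference.

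**Figure D3:**
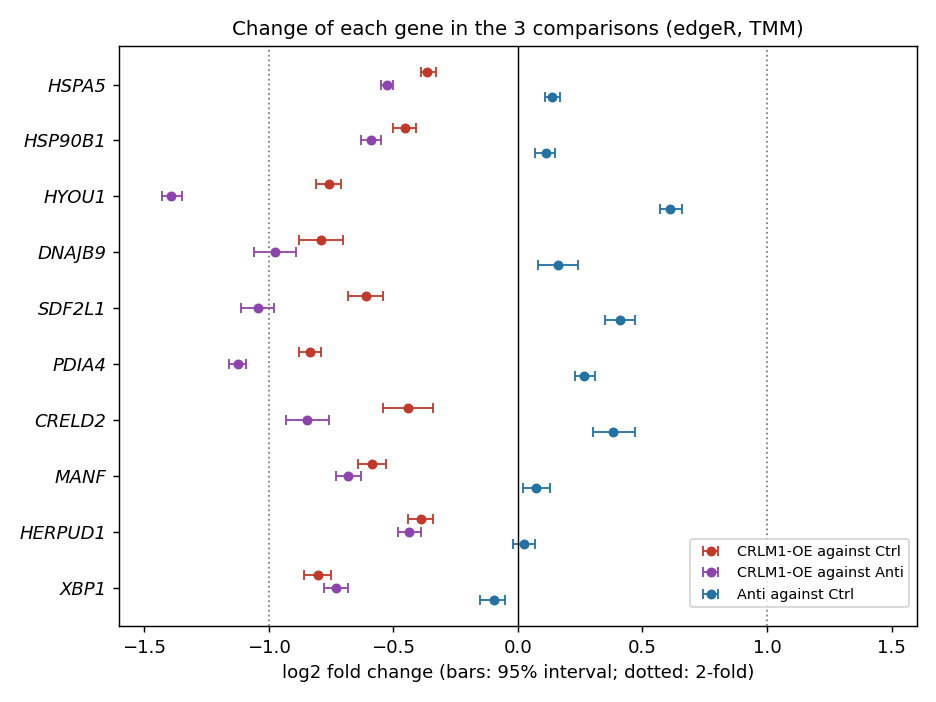
Log2 fold change of each of the 10 genes (x axis) in CRLM1-OE against Ctrl (red), CRLM1-OE against Anti (purple) and Anti against Ctrl (blue), from edgeR with TMM factors, with 95% intervals as bars and 2-fold as dotted lines. All red and purple points lie below 0, from -1.39 to -0.36, and the blue points run from -0.10 in XBP1 to 0.61 in HYOU1.

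The comparison of Anti with Ctrl asks how far the controls themselves differ. At an adjusted p of at most 0.05, 8 of the 10 genes were higher in Anti and 1, XBP1, was lower, where 11.5% of all 29714 genes tested were higher and 12.2% lower. Of the genes whose mean count reached 1000, 24% were higher in Anti and 43.2% lower. The 8 genes had no overlap between Anti and Ctrl samples on the TMM scale, which held for 16.9% of all genes, and none reached 2-fold, which 0.683% of all genes did upward. HYOU1 was highest, at 153% of Ctrl (log2 fold change 0.61 ± 0.023, edgeR adjusted p = 6.2e-155). SDF2L1 was at 133% (0.41 ± 0.032), CRELD2 at 130% (0.38 ± 0.044) and PDIA4 at 120% (0.27 ± 0.021). These 4 moved by more than the abundant chaperones HSPA5 (0.14 ± 0.015) and HSP90B1 (0.11 ± 0.02). DNAJB9 was also higher, by 0.16 ± 0.039 on the log2 scale (edgeR adjusted p = 3.2e-04).

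The other 3 genes were near the threshold or changed with the scale. MANF had a log2 fold change of 0.07 ± 0.027 (edgeR adjusted p = 0.033), and without Anti replicate 1 it was 0.045 with an edgeR adjusted p of 0.42. HERPUD1 had 0.02 ± 0.024 (edgeR adjusted p = 0.57) on the TMM scale, where its groups overlapped, although in FPKM its Anti samples all lay above its Ctrl samples. XBP1 had -0.10 ± 0.025 (edgeR adjusted p = 7.6e-04), but its log2 fold change was 0.009 with an edgeR adjusted p of 0.85 when counts were scaled by library totals alone. That scaling moved the median of the genes whose mean count reached 100 by 0.10 in this comparison and by 0.14 in CRLM1-OE against Ctrl. Under it the 10 genes ran from -0.69 to -0.22 in CRLM1-OE against Ctrl. Since CRLM1-OE is shared by its comparisons with Ctrl and Anti, these are not independent of each other.

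The wider ER machinery was read from 9 lists by role, 89 genes in all with none of the 10 above, of which 87 were in the table. Against Ctrl 57 of the 87 were lower, 10 higher and 20 not called, with a median log2 fold change of -0.23. Against Anti 54 were lower, 20 higher and 13 not called, with a median of -0.16. Of the 74 whose mean count reached 1000, 68.9% were lower than in Ctrl and 60.8% lower than in Anti, beside 49% and 43.3% of all genes of that abundance, and 10.8% and 24.3% were higher, beside 27.8% and 37.9%. Under scaling by library totals 44 of the 87 were lower and 23 higher than in Ctrl. In Anti against Ctrl 28 of the 87 were higher, 34 lower and 25 not called, with a median of -0.04, so the wider lists did not share the direction of the 10 genes there. The lists were chosen with earlier results of these data known, so these shares are descriptions and no test of the lists.

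**Figure D4:**
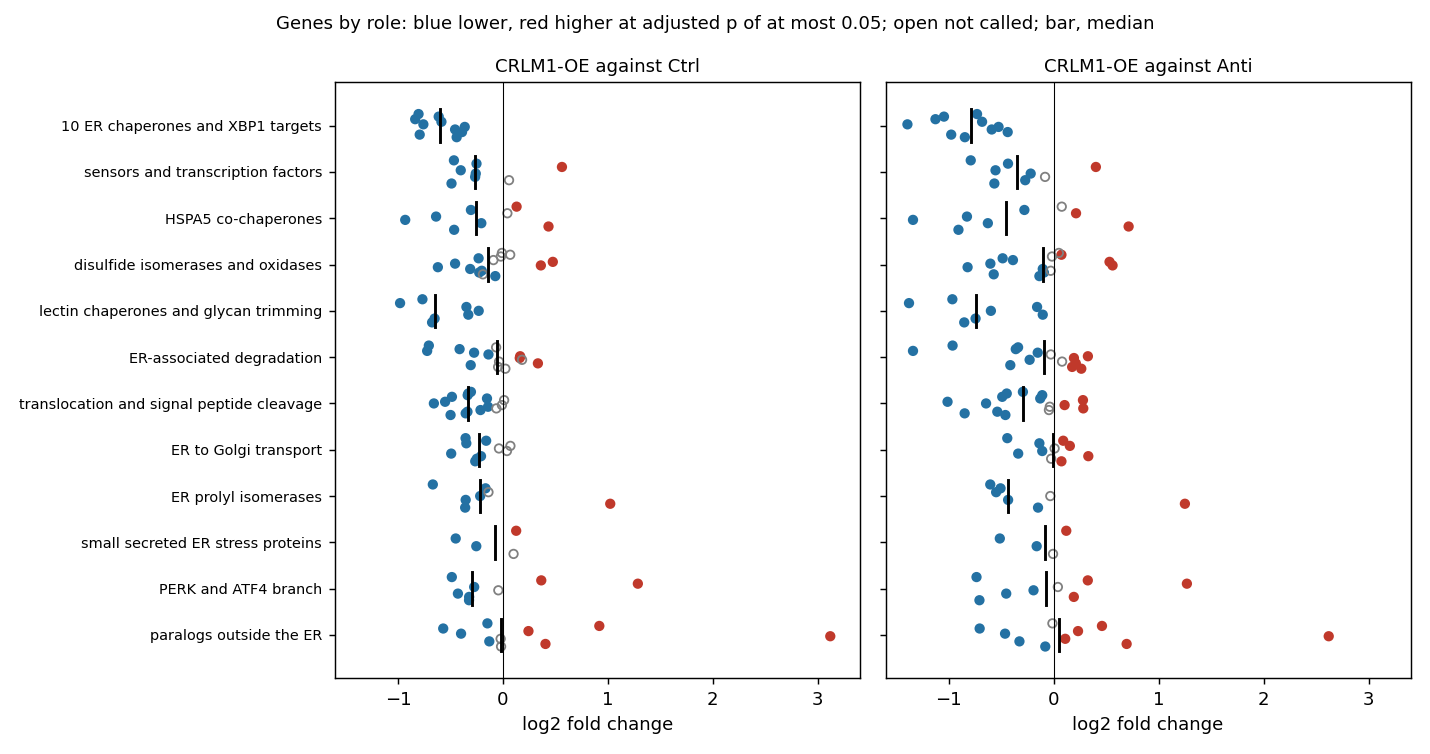
Log2 fold change (x axis) of the genes of each list (rows) in CRLM1-OE against Ctrl (left) and Anti (right), blue for lower and red for higher at an adjusted p of at most 0.05, open circles for not called, with a bar at the median of each list. The 10 genes in the top row are all lower, and the medians of the other ER lists against Ctrl run from -0.65 for the lectin chaperones to -0.05 for ER-associated degradation.

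Among the lectin chaperones and enzymes of glycan trimming, all 7 were lower in both comparisons, with medians of -0.65 and -0.74. UGGT1, which reglucosylates glycoproteins that are not yet folded, was lower by 0.98 on the log2 scale against Ctrl, and fell by 1.38 against Anti (edgeR adjusted p = 1.4e-136 and 1e-300). Its paralog UGGT2 had -0.77 and -0.96, and calreticulin (CALR), the soluble lectin chaperone, -0.67 and -0.85. CALR was at 523 ± 3.91 FPKM with CRLM1, 771 ± 3.56 with the empty vector and 914 ± 1.85 with the antisense sequence (SD, n = 3), the order seen for HSPA5. The promoter of CALR held an element, as did those of CANX, PDIA6 and ERO1B among the 75 genes of the lists that matched a promoter.

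Of 8 co-chaperones and relatives of HSPA5 5 were lower and 2 higher against each control. DNAJC3 (p58IPK), a J-domain protein that also restrains PERK, had log2 fold changes of -0.93 against Ctrl and -1.34 against Anti (edgeR adjusted p = 9.0e-103 and 1.5e-260). HSPA13 had -0.64 and -0.82, and DNAJB11 (ERdj3), the partner of SDF2L1, -0.46 and -0.91. The higher ones were DNAJC1 (0.43 and 0.71), SIL1 against Ctrl (0.13) and SDF2 against Anti (0.21). Of 14 disulfide isomerases and oxidases 7 were lower and 2 higher against Ctrl, and 8 were lower and 3 higher against Anti. PDIA3, the isomerase that works with calreticulin, had -0.62 against Ctrl and PDIA6 -0.46, while the oxidase QSOX1 had 0.48 (edgeR adjusted p = 2.5e-71) and PDIA5 0.36. ERO1B, which oxidizes disulfide isomerases, was called lower against Anti (-0.57, edgeR adjusted p = 3.7e-12) and was not called against Ctrl (-0.19, edgeR adjusted p = 0.081).

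ER-associated degradation was divided. Against Ctrl 6 of 14 genes were lower, 3 higher and 5 not called, and its median of -0.05 was the nearest to 0 of the lists. Against Anti 7 were lower and 5 higher. SEL1L, the adaptor of the HRD1 ligase, had -0.72 against Ctrl and -1.34 against Anti, and the ubiquitin-conjugating enzyme UBE2J1 had -0.71 and -0.96. SELENOS had -0.41 against Ctrl and DERL2 -0.41 against Anti. EDEM1, a lectin that hands glycoproteins to degradation and a known target of XBP1, was higher than in both controls (0.33 and 0.21), as were FAF2 (0.17 and 0.33) and ERLEC1 (0.16 and 0.19). In translocation and signal peptide cleavage 12 of 15 were lower against Ctrl and none was called higher, and against Anti 10 were lower and 3 higher. The signal peptidase subunits SPCS2, SPCS3 and SEC11A had -0.66, -0.55 and -0.50, and against Anti SPCS3, SEC11C and SPCS2 had -1.01, -0.85 and -0.64. SEC61G, SRPRA and SPCS1 had 0.28, 0.28 and 0.10 against Anti and were not called against Ctrl.

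In the list of ER to Golgi transport, 7 of 10 genes were lower and none higher against Ctrl, whereas against Anti 4 were lower and 4 higher. LMAN1, a cargo receptor for glycoproteins, had -0.49 and -0.34, SEC31A, a COPII coat subunit, -0.35 against Ctrl, and KDELR3, a receptor that returns chaperones such as HSPA5 to the ER, 0.33 against Anti. TRAM1, counted in this list although it is known from translocation, had -0.36 and -0.44. Of 7 prolyl isomerases of the ER 5 were lower and 1 higher against each control. The higher one, FKBP11, had 1.02 against Ctrl (edgeR adjusted p = 6.6e-09) and was at 238% of its level in Anti (edgeR adjusted p = 1.7e-12), at a mean count of 74, and was the only one of the 87 past 2-fold against Ctrl. PPIB had -0.67 and -0.60, FKBP10 and FKBP14 -0.36 and -0.35 against Ctrl, and FKBP9 and FKBP14 -0.50 and -0.43 against Anti. Of 4 genes in a further ER list NUCB2 (-0.45 against Ctrl and -0.51 against Anti) and CRELD1 (-0.25 and -0.16) were lower and SDF4 (0.13 and 0.12) was higher.

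The sensors moved unequally. Of 8 sensors and transcription factors 6 were lower and 1 higher against each control, and the 6 were not all the same genes. The higher one was ERN1 in both comparisons, the kinase and nuclease that splices XBP1 mRNA, with FPKM of 5.55 ± 0.29 in CRLM1-OE, beside 3.47 ± 0.0436 for Ctrl and 4.07 ± 0.0436 for Anti (SD, n = 3). Its log2 fold change was 0.56 against Ctrl (edgeR adjusted p = 4.1e-42) and 0.40 against Anti (edgeR adjusted p = 6.1e-25), opposite to those of XBP1. ATF6 had -0.49 against Ctrl and -0.56 against Anti, MBTPS2, the protease that releases ATF6, had -0.47 and -0.79, and EIF2AK3 had -0.40 and -0.55.

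In the branch of PERK and ATF4, 5 of 8 genes were lower and 2 higher against Ctrl, and 4 were lower and 3 higher against Anti. Of all genes whose mean count reached 1000, 49% were lower and 27.8% higher against Ctrl. Against Anti these shares were 43.3% and 37.9%, so the counts of this branch lie near them. ATF4, the transcription factor of this branch, had a log2 fold change of -0.43 against Ctrl (edgeR adjusted p = 2.7e-92), and its target TRIB3 had -0.49 against Ctrl and -0.73 against Anti. ASNS, asparagine synthetase, had -0.71 against Anti. PPP1R15A (GADD34), which directs the phosphatase that reverses the action of PERK, was higher, at 292 ± 2.87 FPKM in CRLM1-OE, beside 111 ± 1.07 for Ctrl and 117 ± 2.02 for Anti (SD, n = 3), with log2 fold changes of 1.29 and 1.27.

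Paralogs of the chaperones in the cytosol and mitochondria did not share one direction. Of 10 listed, 4 were lower, 4 higher and 2 not called against Ctrl, with a median of -0.02. Of all genes whose mean count reached 1000, 49% were lower and 27.8% higher. In CRLM1-OE, HSPA1A, the inducible HSP70 of the cytosol, was at 43 ± 13.7 FPKM, beside 4.6 ± 0.381 for Ctrl (SD, n = 3). Its log2 fold change was 3.12 (edgeR adjusted p written as 1e-300). HSPA1B is a near-identical copy, and reads that match both genes are left out where only uniquely mapped reads are counted. HSPH1, the cytosolic relative of HYOU1, had 0.92, DNAJB1 0.41 and the constitutive HSPA8 0.24. The mitochondrial HSPA9 had -0.57 and HSPA4 -0.40. HSP90AA1 had -0.13 and the mitochondrial TRAP1 -0.15 at the TMM scaling, and under scaling by library totals HSP90AA1 was at 0.012 and TRAP1 at -0.006, neither of them called. HSP90AB1 and DNAJA1 were both at -0.02, were not called, and turned to 0.121 and 0.124 under that scaling.

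The genes whose log2 levels followed HSPA5 most closely over the 9 samples, out of 11702 whose mean count reached 100, were NFKB1, PLAU, DCBLD2, EHF, NCL, G3BP1, ACSL5 and ANXA1, with Pearson r of 0.9979 to 0.9993. The samples fell into their 3 groups, so that r mainly compares 3 group means, and no test is attached. Each of the 8 stood in the order CRLM1-OE, Ctrl, Anti, such as PLAU, the urokinase plasminogen activator, with mean FPKM of 84.3, 129 and 171. Of the other 9 genes described here, PDIA4 came nearest to HSPA5, with r of 0.997 and rank 21, and XBP1 was farthest, with r of 0.923 and rank 1820 of 11701.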

How the data were processed

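RNA of 9 HCT116 samples in 3 groups, taken from the labels, was sequenced by the authors, who mapped reads of 16 nt or longer to GRCh38 by TopHat2, with up to 4 mismatches and the annotation of Gencode version 23. The authors deposited raw counts of uniquely mapped reads per gene. The deposited FPKM were computed by the authors, scaled for exon length and mapped fragments. Both tables are limited to genes named expressed, and how these were chosen is not given in the sources used here.

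Counts were tested by the quasi-likelihood test of edgeR 4.0.16 (R 4.3.3, functions glmQLFit and glmQLFTest) after TMM scaling, on the 6 samples of each of 3 comparisons, for every gene with at least 1 count. The standard error is the log2 fold change divided by the square root of F. The test was tried on simulated data with planted changes. With 3 samples a group, the smallest two-sided p of an exact permutation test is 0.1, so none was used. At these depths 3 counts correspond to 0.0674 to 0.0901 CPM, which covers counting error only. Adjusted p below 1e-300 are written as 1e-300.

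Alternatives were RLE factors, library totals without factors, filterByExpr, the Wald test of DESeq2 1.42.0, limma 3.58.1 on log2(FPKM + 0.1) and log2(FPKM + 1), all 9 samples in one fit, the replicate number as a block, and each replicate left out. The 10 genes and the lists were chosen with earlier results of these data known. Other genes named are, per list, at most 3 with the largest called change and a mean count of at least 100 in each comparison with CRLM1-OE, every paralog, and the 8 genes most like HSPA5. CANX, ERO1B against Ctrl and the marker genes were given beside these for the promoter and marker checks, and DNAJC1, SIL1, SDF2, PDIA5, EDEM1, FAF2, ERLEC1, SEC61G, SRPRA, SPCS1 and FKBP11 were named after their values were seen. Promoter sequences are RefSeq's, on GRCh38.p14. Positions of genes and overlaps between them were taken from GENCODE version 44 on GRCh38. HSPA5P1 was not analysed here, and XBP1P1 had at most 1 count.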

Additional observations from a re-analysis of the deposited data

How the results depend on the processing

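Each of the 20 log2 fold changes of the 10 genes in CRLM1-OE against Ctrl and against Anti kept its direction and its call under all 14 alternatives, from -0.851 to -0.222 against Ctrl and from -1.405 to -0.378 against Anti. In Anti against Ctrl, MANF was not called with DESeq2 (0.074, adjusted p = 0.085) or without Anti replicate 1 (0.045), with 0.045 to 0.089 over the replicates left out. HERPUD1 was called at 0.130 with library totals and at 0.116 and 0.115 with limma at pseudocounts of 0.1 and 1, XBP1 reversed to 0.009 with library totals and was not called with limma (-0.004 at both), and the number of the 10 genes lower was then 0 in place of 1. The replicate numbers gave correlations of -0.0749 to 0.0782 between same-numbered samples and so pair nothing, and under the replicate block the genes called at 2-fold were 865, 1488 and 213 in place of 1018, 1705 and 316 for CRLM1-OE against Ctrl, CRLM1-OE against Anti and Anti against Ctrl.

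The number of genes called at 2-fold was 649 with DESeq2 and 634 and 98 with limma against Ctrl, 1030 with limma at 0.1 and 226 at 1 against Anti, and 185 with filterByExpr, 97 with DESeq2 and 116 and 4 with limma in Anti against Ctrl. Genes lower than in Ctrl at adjusted p alone numbered 5016, and 2951 with library totals, 2683 and 2666 with limma. In Anti against Ctrl 3406 were higher, and 5500 with library totals, while 3635 were lower, and 2029, 1770 and 1753 in the same order. Library totals raised the share of called genes that were higher from 47.1% to 69.3% against Ctrl and from 48.4% to 73.1% in Anti against Ctrl. Of the 87 genes of the wider lists 10 were higher than in Ctrl, and 23, 18 and 19 in that order, and 34 were lower in Anti than in Ctrl, and 20, 19 and 19. Without one replicate at a time that last number was 27 to 30.

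HSP90AA1 reversed to 0.012 with library totals, where TRAP1 also lost its call, and both lost it with limma, as did MBTPS2 (adjusted p = 0.056 and 0.066) and FKBP14 (0.067 and 0.078) against Ctrl. HSP90AB1 reversed to 0.121 with library totals, 0.094 with limma at both pseudocounts and 0.003 without Ctrl replicate 1, and DNAJA1 to 0.124, 0.098, 0.096 and 0.009. With each replicate left out, HSP90AB1 ran from -0.023 to 0.003 and DNAJA1 from -0.022 to 0.009. The cause of these changes was not tested, beyond the shift of the median gene that library totals bring. Depth was no limit for the 10 genes, since the lowest count was 878.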
